A study of Mus musculus with 15 samples.

Results

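The genes examined here are 10 genes that mark blood vessel endothelium, read in RNA-seq libraries of a podocyte-enriched kidney fraction. They were chosen as a fixed list of symbols (Pecam1, Cdh5, Emcn, Ehd3, Plvap, Eng, Vwf, Nos3, Egfl7 and Esam), and all 10 were found among the 46078 genes of the deposited table and passed the filter on low counts in every comparison. The mice were male C57BL/6J. Young mice were 4 months old and uninjected. Both aged groups were 21 months old and received an intraperitoneal injection every week for 8 weeks at 12 mg/kg, either the anti–PD-1 antibody RMP1-14 (aPD1ab) or the isotype control antibody 2A3 (IgG2a). The titles of the aPD1ab samples give 47 days, which does not match 8 weeks. No group of uninjected aged mice is among the libraries, so age and the control injection cannot be told apart in any comparison with young mice. The cells came from digested kidney cortex and were selected with anti-Nephrin antibodies and magnetic beads. The selection was aimed at podocytes and did not target endothelial cells.

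Endothelial cells line every vessel and hold on to each other through junctional and adhesion proteins such as VE-cadherin, PECAM-1 and ESAM. In the glomerulus they form a fenestrated capillary wall that faces the podocytes across the basement membrane. Capillaries elsewhere in the kidney span their fenestrae with a diaphragm of PV-1, the product of Plvap, which mature glomerular capillaries largely lack, and larger vessels store von Willebrand factor. The list therefore holds genes that all vascular beds share and genes that differ between beds.

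Of the 15 libraries that the labels describe, 13 columns could be tied to a group: 5 young, 4 IgG2a and 4 aPD1ab. The numbers that head the columns are not the animal numbers of the sample labels, so that the group of every library rests on the study's plot of principal components, which prints the same numbers. Their totals ran from 19912969 to 32717100 counts. At this depth the rarest member in any library still had 98 reads (Vwf), and the most abundant had up to 8630 (Ehd3). One library, IgG2a replicate 1, stood apart from the other libraries of its group: the 10 leukocyte markers summed to 2312 CPM in it (a gene's counts relative to the library's scaled total) and to 5999 to 6900 in the other 3, and the 8 proximal tubule markers summed to 4106 CPM against 806 to 1290. Results that its removal moved are therefore given with and without it. In the aPD1ab group, replicate 2 had the highest proximal tubule sum (12679 CPM against 4226 to 8354). It also had the lowest podocyte sum (197 CPM against 399 to 679). Its removal is given only among the fits that left out 1 library. The 8 podocyte markers were present in every library (197 to 1295 CPM in sum), and the sum of the 10 endothelial genes was 660 to 922 CPM in young, 601 to 631 in IgG2a and 412 to 898 in aPD1ab libraries. The labelled cell type was thus present, together with tubular, leukocyte and endothelial RNA, as the plot of summed marker lists shows.

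**Figure D1:**
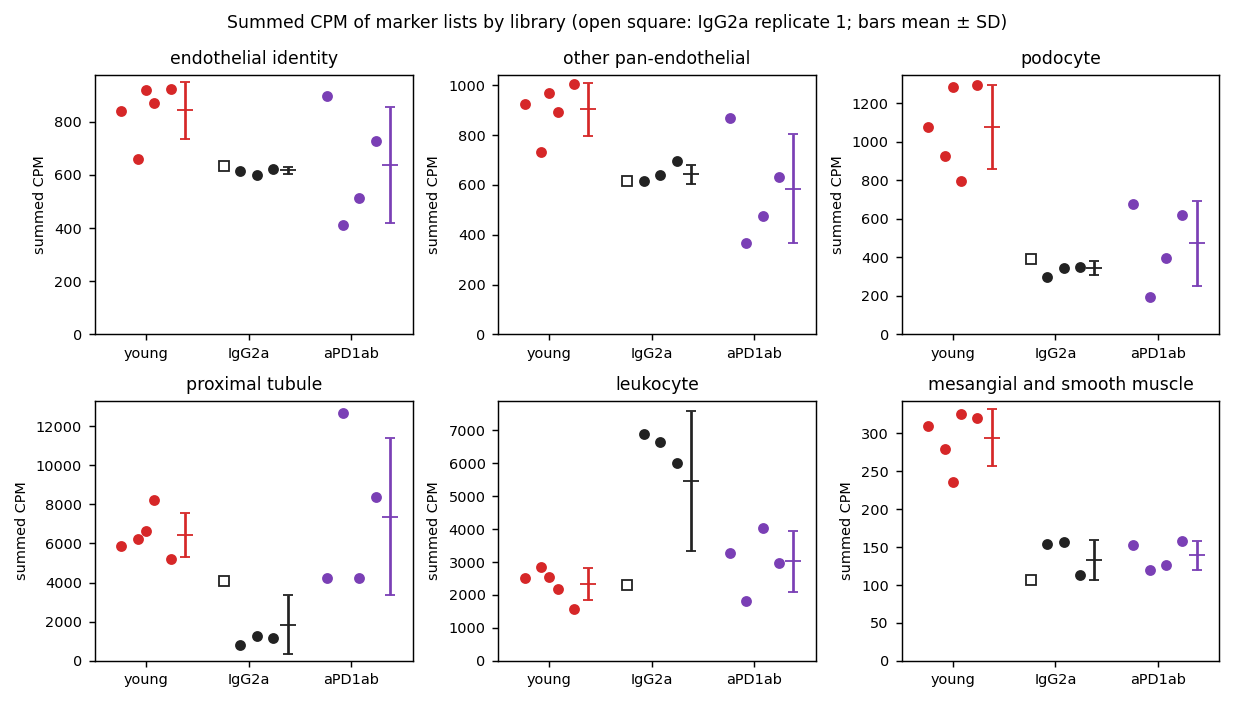
Summed CPM of 6 marker lists (y axes, from 0) in each library (points) of the young, IgG2a and aPD1ab groups, with mean ± SD bars and IgG2a replicate 1 as an open square. The endothelial sums of the 4 IgG2a libraries lie close together at 601 to 631 CPM, below all 5 young libraries, while the 4 aPD1ab libraries spread from 412 to 898 CPM.

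All positions are on GRCm38. The shared junction and adhesion genes are Pecam1 (ENSMUSG00000020717, chr11:106654217-106750628), the platelet and endothelial adhesion molecule, Cdh5 (ENSMUSG00000031871, chr8:104101625-104144511), which encodes VE-cadherin, and Esam (ENSMUSG00000001946, chr9:37528078-37538319), an immunoglobulin-family junction molecule. Emcn (ENSMUSG00000054690, chr3:137341067-137432185) encodes the sialoglycoprotein endomucin. Ehd3 (ENSMUSG00000024065, chr17:73804134-73832094) is an endocytic ATPase that in the kidney marks glomerular endothelium. Plvap (ENSMUSG00000034845, chr8:71497765-71511752) encodes the diaphragm protein PV-1. Eng (ENSMUSG00000026814, chr2:32646595-32682669) is endoglin, a co-receptor for ligands of the TGF-β family. Vwf (ENSMUSG00000001930, chr6:125546774-125686679) encodes von Willebrand factor and Nos3 (ENSMUSG00000028978, chr5:24364810-24384474) the endothelial nitric oxide synthase. Egfl7 (ENSMUSG00000026921, chr2:26580014-26593120) encodes a protein that endothelial cells secrete into their matrix.

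All 10 are protein-coding genes, and the counts cover their exons. Nos3 shares 1040 exon bases (25.2% of its exons) with the antisense gene Gm15587, Egfl7 shares 264 bases with the gene model Gm20532 on its own strand, and Eng shares 61 bases with Fpgs on the opposite strand. These are the largest overlaps: Nos3 shares exon bases with 2 genes and Egfl7 with 4. The strand setting of the counting is not given in the sources used here, and none would separate Egfl7 from Gm20532. Part of the reads of these 3 genes could thus belong to a partner or be lost to it. The other members, apart from these 3, overlap the exons of no other annotated gene.

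RefSeq promoter windows on GRCm38.p6, from 250 bases before to 50 after a transcript start, were at hand for Emcn, Ehd3, Eng and Egfl7. ETS-family and GATA-family factors are known regulators of endothelial genes, so 3 short motifs were searched on both strands. The 4 genes have 6 such windows, 3 of them for Egfl7. AGGAAG, an ETS core, was in 5 of the 6 and in 35.4% of all 32851 promoter windows. The other ETS core searched, CGGAAG, was in none of the 6 and in 16.9% of all windows. AGATAA, the 1 form of a GATA motif that was searched, was in none either, and in 11.2% of all windows. Other forms of GATA motifs were not searched, so these windows can hold them. The windows of Ehd3 and Emcn, which are among the genes that fell in IgG2a against young libraries, and of Eng, which was not called, are shown. Whether the change of Eng differed from theirs was not tested. Capitals mark AGGAAG or its reverse complement, 1 match in Ehd3, 2 in Emcn and 2 in Eng.
Ehd3 promoter (chr17:73804591-73804890, plus strand): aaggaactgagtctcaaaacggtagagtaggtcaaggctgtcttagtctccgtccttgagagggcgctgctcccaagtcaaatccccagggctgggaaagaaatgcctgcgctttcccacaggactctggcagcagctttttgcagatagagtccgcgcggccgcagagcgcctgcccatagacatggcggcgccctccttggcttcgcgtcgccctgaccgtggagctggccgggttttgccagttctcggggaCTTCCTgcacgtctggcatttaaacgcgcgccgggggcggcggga
Emcn promoter (chr3:137340828-137341127, plus strand): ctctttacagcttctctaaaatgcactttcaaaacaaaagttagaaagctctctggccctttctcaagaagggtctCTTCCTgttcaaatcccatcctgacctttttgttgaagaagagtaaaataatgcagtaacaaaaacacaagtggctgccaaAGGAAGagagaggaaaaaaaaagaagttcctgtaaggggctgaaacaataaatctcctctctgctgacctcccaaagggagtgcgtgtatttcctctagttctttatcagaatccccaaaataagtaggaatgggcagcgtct
Eng promoter (chr2:32646345-32646644, plus strand): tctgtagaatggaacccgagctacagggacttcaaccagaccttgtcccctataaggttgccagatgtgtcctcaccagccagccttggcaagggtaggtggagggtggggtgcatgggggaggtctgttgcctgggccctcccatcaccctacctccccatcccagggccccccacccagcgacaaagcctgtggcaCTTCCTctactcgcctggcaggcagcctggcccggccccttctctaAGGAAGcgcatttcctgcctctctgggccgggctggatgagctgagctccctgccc

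Per base of exon, Eng had the highest level of the 10 genes in every group and Vwf the lowest. In young libraries Eng stood at 109.9 ± 9.35 TPM (a level per exon length; SD, n = 5) and Ehd3 at 83.5 ± 25.9 TPM, with overlapping ranges. Emcn (52.4 ± 4.90 TPM), Pecam1 (50.03 ± 6.07), Cdh5 (49.8 ± 4.26) and Plvap (42.9 ± 5.02) followed as neighbours whose ranges overlapped from one to the next. Esam had 35.5 ± 2.42 TPM, Egfl7 27.3 ± 3.63, Nos3 6.23 ± 1.24 and Vwf 1.06 ± 0.211, and each of the last 3 lay below the gene before it in all 5 libraries without overlap. Eng kept the first place in both aged groups, above Ehd3 in all 8 libraries, and Nos3 and Vwf kept the last ones. Ehd3 was second by the group mean, but it lay above the next gene by mean in 1 of 4 IgG2a libraries (Plvap) and in 1 of 4 aPD1ab libraries (Emcn). Plvap was the sixth in young and the third in IgG2a libraries, although its range overlapped those of both its neighbours in each group.

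The plot of CPM by library shows each member in all 13 libraries. These CPM values are scaled by TMM, a factor per library that sets the bulk of the genes to an equal level.

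**Figure D2:**
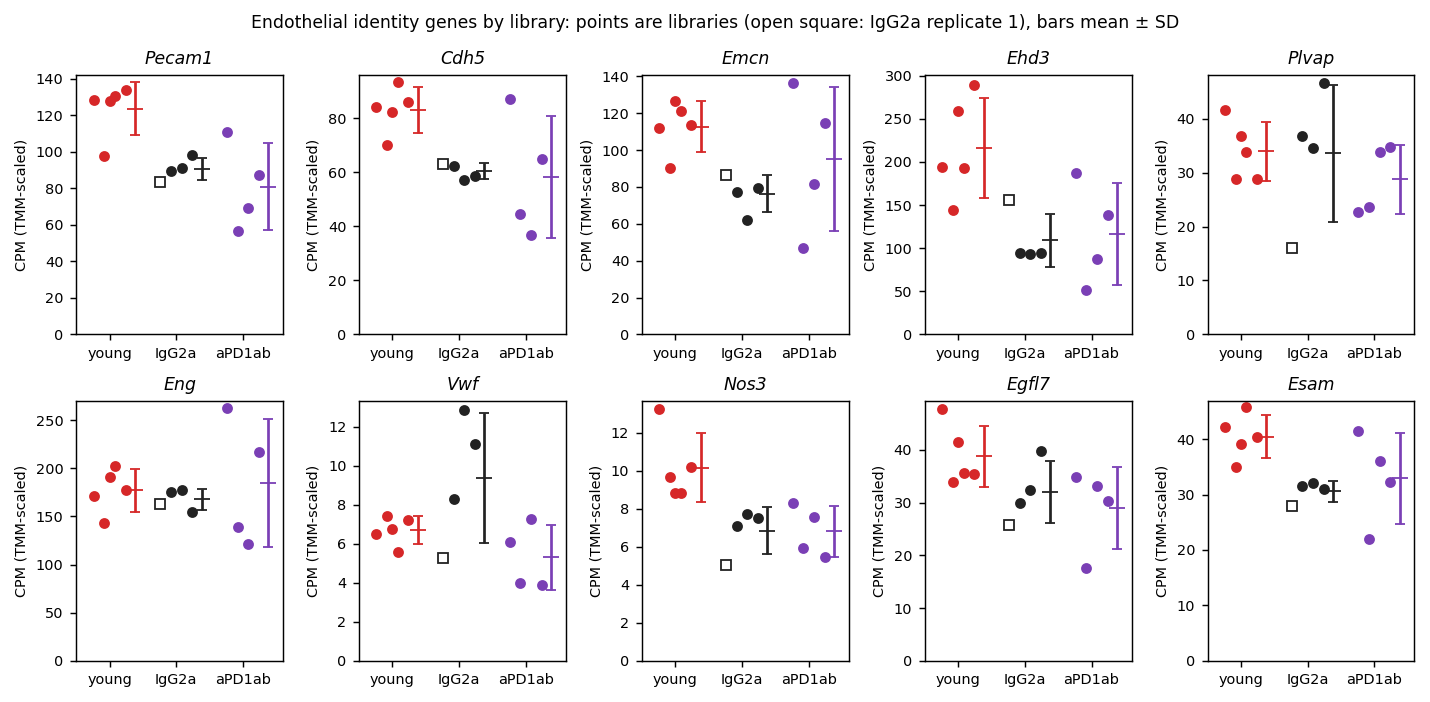
CPM of the 10 endothelial genes (y axes, from 0, 1 panel a gene) in each library (points) of the young, IgG2a and aPD1ab groups, with mean ± SD bars and IgG2a replicate 1 as an open square. Cdh5, Emcn, Esam and Nos3 are lower in all 4 IgG2a libraries than in any young library, Eng overlaps between the groups, and aPD1ab libraries spread widely.

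The first comparison, aged IgG2a against young, asks how the genes differed between aged, injected and young, uninjected mice. In this report "with age" is short for this comparison, in which age and the control injection cannot be told apart. In these data, scaled by TMM, 4 of the 10 endothelial genes fell in IgG2a libraries, Ehd3 most and then Emcn, Cdh5 and Esam. With this scaling Eng and Plvap were near their young level and Vwf was on average above it. Of all 15953 genes tested, 8.38% were called lower and 17.4% were called in either direction, where called means a Benjamini-Hochberg adjusted p under 0.05 over all genes in edgeR's quasi-likelihood test. The median log2 fold change was −0.36 over the 10 members and 0.04 over all genes. Since these are bulk libraries, fewer endothelial cells and less of a transcript per endothelial cell cannot be told apart.

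Ehd3 had the largest change. Its CPM in the 5 young libraries was 194, 144, 192, 289 and 259, and in the 4 IgG2a libraries it was 155, 94.4, 93.0 and 94.1. Only IgG2a replicate 1 reached the young range, and it did so just above the lowest young library (replicate 2). The log2 fold change was −0.92 ± 0.23 (SE; adjusted p by edgeR = 0.0285), and −1.15 ± 0.20 (adjusted p = 0.00127) without IgG2a replicate 1, when the groups no longer overlapped.

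Emcn was at 112, 90.5, 121, 113 and 127 CPM in young and at 86.4, 77.4, 62.3 and 79.5 CPM in IgG2a libraries. All 4 IgG2a libraries lay below all 5 young ones, and the log2 fold change was −0.50 ± 0.13 (adjusted p by edgeR = 0.0314), or −0.57 ± 0.12 without replicate 1 (adjusted p = 0.00361).

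Cdh5, the junction gene that all endothelial cells share, was at 84.3, 69.9, 93.2, 85.8 and 82.4 CPM in young and at 63.1, 62.4, 57.2 and 58.6 CPM in IgG2a libraries. The groups did not overlap, and the IgG2a libraries differed from each other by less than the young ones did (coefficient of variation, CV, 4.80% against 10.2%). The log2 fold change was −0.40 ± 0.10 (adjusted p by edgeR = 0.0303), or −0.43 ± 0.10 without replicate 1 (adjusted p = 0.00503).

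Esam followed with 42.2, 35.0, 45.7, 40.3 and 39.2 CPM in young and 27.9, 31.6, 32.1 and 30.9 CPM in IgG2a libraries, again without overlap. Its log2 fold change was −0.34 ± 0.10, close to the threshold (adjusted p by edgeR = 0.0485), and −0.30 ± 0.09 without replicate 1 (adjusted p = 0.0217). Pecam1, the third of the junction and adhesion genes, missed it: 128, 97.9, 130.5, 134 and 128 CPM in young stood against 83.6, 89.5, 91.2 and 98.1 CPM in IgG2a libraries. Young replicate 2 lay just below the highest IgG2a library, and this was the only overlap. The log2 fold change of Pecam1 was −0.38 ± 0.12 with an adjusted p by edgeR of 0.0541, and it passed without IgG2a replicate 1 (−0.36 ± 0.11, adjusted p = 0.0197). Pecam1 is also made by leukocytes and platelets, and the leukocyte sum was 1560 to 2864 CPM in young and 2312 to 6900 CPM in IgG2a libraries. The part of those cells in its level was not tested.

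Nos3, which makes the vasodilator nitric oxide, did not overlap between the groups either. It had 13.3, 9.64, 8.84, 10.2 and 8.84 CPM in young and 5.04, 7.11, 7.70 and 7.53 CPM in IgG2a libraries. At a log2 fold change of −0.51 ± 0.18 it did not pass (adjusted p by edgeR = 0.0777; 0.0582 without IgG2a replicate 1). Cdh5, Emcn, Nos3 and Esam were thus the 4 members without overlap, all lower, where 9.73% of all genes were lower without overlap and 14.5% had none in either direction.

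Egfl7 had 33.9 to 47.8 CPM in young and 25.8 to 39.7 CPM in IgG2a libraries, and its log2 fold change of −0.21 ± 0.15 did not pass (adjusted p by edgeR = 0.327). Eng, the co-receptor with the highest level per length, was at 171, 143, 203, 178 and 191 CPM in young and at 163, 176, 178 and 155 CPM in IgG2a libraries. All IgG2a values lay inside the young range. The log2 fold change was −0.01 ± 0.13 (adjusted p by edgeR = 0.953), so that an interval of 2 SE to each side ran from −0.27 to 0.24. The same interval ran from −0.76 to −0.24 for Emcn, which met that of Eng, and from −1.39 to −0.46 for Ehd3. Differences between genes were not tested. Scaled to library totals in place of TMM, Eng was at −0.43 ± 0.18 (adjusted p by edgeR = 0.0907), beside a median of −0.38 over all genes. Without IgG2a replicate 1 that scaling gave −0.51 and called Eng lower (adjusted p by edgeR = 0.00894), beside a median of −0.52.

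Plvap and Vwf, the genes of diaphragm-bearing capillaries and of larger vessels, were set apart by IgG2a replicate 1. Plvap had 41.6, 28.7, 33.8, 28.8 and 36.8 CPM in young and 16.1, 36.8, 34.6 and 46.6 CPM in IgG2a libraries. The first of the IgG2a values was the lowest of all 13 libraries and the last was the highest. Its log2 fold change was 0.05 ± 0.27 (adjusted p by edgeR = 0.905), and 0.27 ± 0.14 without replicate 1 (adjusted p = 0.142). Scaled to library totals in place of TMM, which shifts the median of all genes to −0.38, Plvap turned to −0.44.

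Vwf had 6.504, 7.41, 5.59, 7.21 and 6.75 CPM in young and 5.27, 8.30, 12.9 and 11.1 CPM in IgG2a libraries. Replicate 1 was below every young library and the other 3 were above them all. With all 4 libraries the log2 fold change of 0.55 ± 0.24 did not pass (adjusted p by edgeR = 0.129). Without replicate 1 it was 0.73 ± 0.16 and passed (adjusted p = 0.00360). Megakaryocytes and platelets make Vwf as well. Of the 6 platelet and megakaryocyte markers, 4 could be tested and 1 was called, Pf4, which encodes a chemokine of platelet granules and rose 2.00 ± 0.35 on the log2 scale (adjusted p by edgeR = 0.0103). Pf4 was at 8.41 CPM in IgG2a replicate 1 and at 17.7 to 28.4 CPM in the other 3 IgG2a libraries, so Pf4 and Vwf were both lowest in the same library of the group. Itga2b and Itgb3, the chains of the platelet fibrinogen receptor, did not share this order and were not called (−0.30 ± 0.24 and −0.31 ± 0.23). Replicate 1 had 3.87 CPM of Itga2b, within a range of 2.31 to 4.00 in the group, and 4.16 CPM of Itgb3, above the 3.96 CPM of replicate 2. The sum of the 6 markers was 13.9 to 19.3 CPM in young libraries, 17.2 CPM in IgG2a replicate 1 and 28.7 to 37.5 CPM in the other 3. Pf4 was the largest part of this sum in every IgG2a library. Over the 4 IgG2a libraries Pf4 took the same order as the leukocyte sum, which was lowest in replicate 1 (2312 CPM) and highest in replicate 2 (6900 CPM). It did not take that order in the young or the aPD1ab libraries. The part of platelet or leukocyte RNA in the levels of Pf4 and Vwf was not tested.

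Without IgG2a replicate 1, Ehd3, Emcn, Cdh5, Pecam1 and Esam were called lower in IgG2a than in young libraries and Vwf higher, which makes 6 of 10 members. In that fit 23.5% of all genes tested were called lower, 22.1% higher and 45.6% in either direction. The calls with all libraries sat near the threshold. Leaving out 1 library at a time, the count of called members was 0 in 7 of 9 fits (without IgG2a replicate 2, 3 or 4, or young replicate 1, 3, 4 or 5, fits that called 3.4% to 9.54% of all genes), 6 without IgG2a replicate 1 and 4 without young replicate 2 (8.6% of all genes). The fold changes themselves moved little: Ehd3 stayed between −1.15 and −0.79, Emcn between −0.57 and −0.41, Cdh5 between −0.45 and −0.35 and Esam between −0.38 and −0.29. A single edgeR fit of all 3 groups, in which the aPD1ab libraries enter the spread, called 0 members and 14.0% of all genes. Scaling to library totals called 7 members lower, with 21.2% of all genes lower and 2.07% higher, against 8.38% and 9.05% with TMM.

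**Figure D3:**
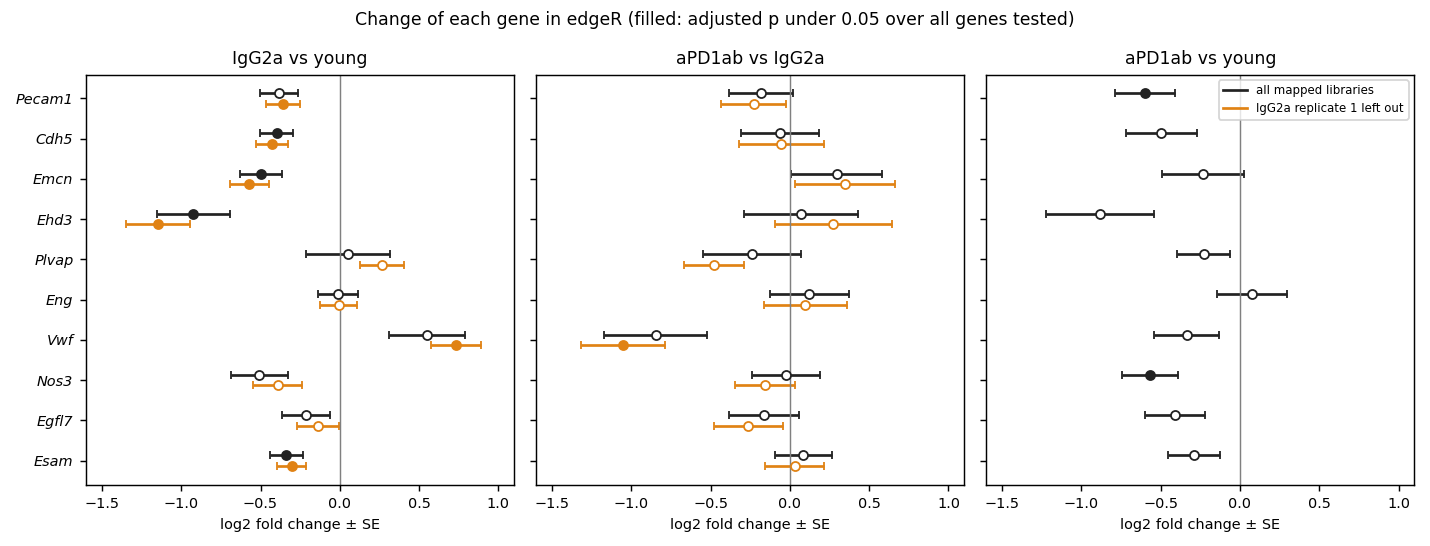
log2 fold change ± SE (x axes) of the 10 genes in the 3 comparisons, with all mapped libraries in black and without IgG2a replicate 1 in orange; filled points passed at an adjusted p under 0.05. Ehd3 lies farthest to the left in IgG2a against young, Vwf is the 1 gene on the right there that passes without IgG2a replicate 1, and in aPD1ab against IgG2a Vwf without that library is the 1 filled point.

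The second comparison, aPD1ab against IgG2a, asks whether the antibody moved these genes in aged mice. None of the 10 was called, and nor was any gene at all (0.0% of 15530; lowest edgeR adjusted p 0.102). At an unadjusted p under 0.05, 1 member (Vwf) stood beside 15.7% of all genes higher and 12.2% lower. DESeq2 called 0 members with all libraries (15.3% of all genes), while limma's voom with library quality weights called 1, Vwf (39.8% of all genes). In a simulation with 2-fold changes in 200 of 15530 genes, the fit for this pair of groups found 15.5% of the changed genes. The share of changed genes was set in the simulation and can differ in the data, so this is no measure of the power of this comparison.

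The members varied widely within the aPD1ab group. Ehd3 was at 187, 51.8, 87.5 and 138 CPM, so its highest library had 3.605 times the lowest, and its log2 fold change against IgG2a was 0.07 ± 0.36 (adjusted p by edgeR = 0.913). Emcn was at 137, 47.0, 81.7 and 115 CPM and Cdh5 at 87.2, 44.4, 37.0 and 65.0 CPM. Both sets of values reached from below the lowest IgG2a library to above the highest one, as they did for Ehd3. Their log2 fold changes were 0.30 ± 0.29 and −0.06 ± 0.24.

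Pecam1 (111, 56.4, 68.9 and 87.4 CPM), Esam (41.4, 22.0, 36.0 and 32.2 CPM) and Eng (263, 139, 121 and 217 CPM) spread the same way around their IgG2a values. Replicate 1 was the highest aPD1ab library for 8 of the 10 members, the exceptions being Plvap and Vwf, and replicate 2 the lowest for 5. Over the members the median CV was 30.2% in aPD1ab, 15.6% in IgG2a and 12.4% in young libraries, whereas over 11199 genes with a mean above 5 CPM it was 16.7%, 19.5% and 11.2%. The podocyte sum took the same order in the aPD1ab libraries (679, 197, 399 and 620 CPM) as the endothelial sum (898, 412, 514 and 729 CPM), and the proximal tubule sum was highest in replicate 2 (12679 CPM against 4226 to 8354). Without aPD1ab replicate 2, 3 of the 10 members were lower than in IgG2a libraries, beside 6 with all libraries, and 0 were called (0.0% of all genes). How far the makeup of the fraction accounts for the spread was not tested.

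Vwf had 6.08, 3.99, 7.26 and 3.88 CPM in aPD1ab libraries. They overlapped only with IgG2a replicate 1 (5.27 CPM), since the other IgG2a libraries began at 8.30 CPM. The log2 fold change was −0.85 ± 0.32 with an adjusted p by edgeR of 0.139. Without IgG2a replicate 1 it was −1.05 ± 0.26 and passed (adjusted p = 0.0211), in a fit that called 13.2% of all genes lower and 30.4% in either direction. Vwf is the 1 member called there, and IgG2a replicate 1 decides the call. Pf4, again beside it, was at 11.2, 14.1, 12.9 and 11.4 CPM in aPD1ab libraries, and its log2 fold change against IgG2a was −0.98 ± 0.19 without replicate 1 (adjusted p = 0.0101). Itga2b went the other way, at 1.14 ± 0.51 in the same fit (adjusted p = 0.125), with 3.20 to 13.02 CPM in aPD1ab libraries, and Itgb3 was at −0.35 ± 0.27 (adjusted p = 0.360). In that fit 8 of 10 leukocyte genes were called lower as well. The part of platelet or leukocyte RNA in the difference of Vwf was not tested.

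Plvap had 22.6, 23.7, 33.8 and 34.7 CPM in aPD1ab libraries. Its log2 fold change was −0.24 ± 0.31 (adjusted p by edgeR = 0.635), and −0.48 ± 0.19 without IgG2a replicate 1 (adjusted p = 0.0895). Egfl7 (34.9, 17.6, 33.05 and 30.2 CPM) and Nos3 (8.32, 5.94, 7.54 and 5.45 CPM) had log2 fold changes of −0.16 ± 0.22 and −0.02 ± 0.22, and Esam one of 0.09 ± 0.18. For Pecam1 it was −0.18 ± 0.20 and for Eng 0.12 ± 0.25.

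The third comparison set aged aPD1ab against young libraries and shares both its groups with the first and second. Pecam1 fell by 0.60 ± 0.19 on the log2 scale (adjusted p by edgeR = 0.0423) and Nos3 by 0.57 ± 0.18 (adjusted p = 0.0410). They were the 2 of 10 members called, where 9.97% of all genes were called lower and 22.4% in either direction. All 4 aPD1ab libraries were below all 5 young ones for Nos3, the 1 member of which this held (10.6% of all genes), and 3 of 4 were for Pecam1. Ehd3 had a similar size of difference as in IgG2a (−0.88 ± 0.34) but a larger error, and did not pass (adjusted p = 0.0880). Cdh5 was at −0.50 ± 0.22, Egfl7 at −0.41 ± 0.19, Vwf at −0.34 ± 0.21, Esam at −0.29 ± 0.16, Emcn at −0.23 ± 0.26, Plvap at −0.23 ± 0.17 and Eng at 0.08 ± 0.22. The count was 0 in 6 of 9 fits that left out 1 library, among them each fit without aPD1ab replicate 2, 3 or 4 or young replicate 1, 3 or 4, and those fits called 14.6% to 22.5% of all genes. It was 4 without aPD1ab replicate 1 (Pecam1, Cdh5, Ehd3 and Nos3), where 23.8% of all genes were called, and 1 each without young replicate 2 or 5 (15.4% and 17.6%).

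To compare vascular beds apart from the total amount of endothelial RNA, Ehd3, Plvap and Vwf were divided by Cdh5 within each library. The log2 ratio of Ehd3 to Cdh5 was 1.34 ± 0.34 in young (SD, n = 5), 0.82 ± 0.32 in IgG2a (n = 4) and 0.91 ± 0.47 in aPD1ab libraries (n = 4). In IgG2a it was 1.30 in replicate 1 and 0.60, 0.70 and 0.68 in the other 3, all of which lay below the lowest young value of 1.04. The difference of −0.52 ± 0.22 (SE) between IgG2a and young did not pass a two-sided exact permutation test (p = 0.0635, adjusted over 9 tests p = 0.286).

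The log2 ratio of Vwf to Cdh5 was −3.62 ± 0.29 in young, −2.75 ± 0.63 in IgG2a and −3.41 ± 0.76 in aPD1ab libraries. IgG2a exceeded young by 0.87 ± 0.34 (exact permutation p = 0.0476, adjusted p = 0.286). Division by Cdh5 does not remove Vwf RNA of platelets and megakaryocytes, and its part in this ratio was not tested. The ratio of Plvap to Cdh5 was −1.30 ± 0.22, −0.95 ± 0.71 and −0.97 ± 0.74, and ranged from −1.97 in IgG2a replicate 1 to −0.13 in aPD1ab replicate 3. None of the 9 tests passed after adjustment. Without IgG2a replicate 1 all 3 ratios separated IgG2a from young without overlap, by −0.68 for Ehd3, 0.69 for Plvap and 1.14 for Vwf. Each then had an exact permutation p of 0.0357, the smallest that 3 against 5 libraries can give, and an adjusted p of 0.107.

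**Figure D4:**
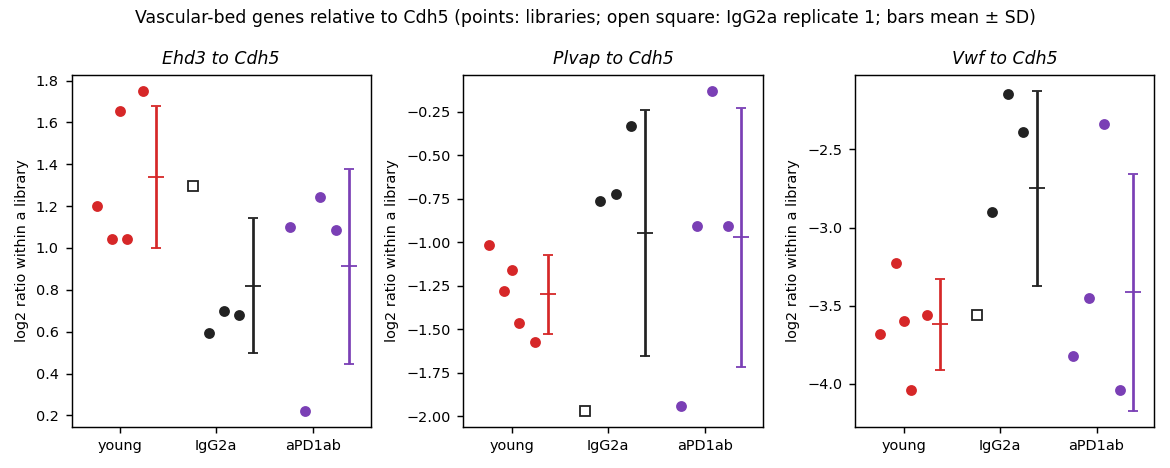
log2 ratio of Ehd3, Plvap and Vwf to Cdh5 within each library (y axes; points are libraries, bars mean ± SD, open square IgG2a replicate 1). The other 3 IgG2a libraries lie below the young ones for Ehd3 and above them for Plvap and Vwf, and replicate 1 lies within the young range for Ehd3 and Vwf.

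Genes of the same cell type outside the list were read in the same fits. The shares of all genes called therefore apply to each list below. With all libraries they were 8.38% lower and 9.05% higher in IgG2a against young, and 0.0% in aPD1ab against IgG2a. Without IgG2a replicate 1 they were 23.5% lower and 22.1% higher in IgG2a against young, and 13.2% lower and 17.1% higher in aPD1ab against IgG2a. Of 20 other pan-endothelial genes, 6 fell with age in IgG2a libraries and 0 rose, with a median log2 fold change of −0.27. Tek, the angiopoietin receptor, fell by 0.98 ± 0.14 (adjusted p by edgeR = 0.00478), from 60.1 ± 8.35 CPM in young (SD, n = 5) to 29.1 ± 4.15 CPM in IgG2a libraries (n = 4). The VEGF receptors Kdr and Flt1 fell by 0.54 ± 0.15 and 0.56 ± 0.15, and Tie1, a receptor related to Tek, by 0.46 ± 0.12. Robo4 and Cldn5, a guidance receptor and a tight junction gene, were the other called genes. With all libraries 0 of the 20 were called in aPD1ab against IgG2a (median −0.11), where 0.0% of all genes were. In aPD1ab against young libraries 7 were called lower, beside 9.97% of all genes. Without IgG2a replicate 1, 7 were called lower with age (median −0.24) and 2 higher, namely Fli1, an ETS-family factor (0.83 ± 0.12, adjusted p = 0.000266), and Gpihbp1, which anchors lipoprotein lipase to capillaries (0.66 ± 0.23, adjusted p = 0.0338). Against IgG2a, Fli1 was then the 1 gene called, lower in aPD1ab (−0.98 ± 0.28, adjusted p = 0.0340). In these 2 fits 8 of 10 leukocyte genes were called in the same directions as Fli1 (medians 1.41 and −1.18). The part of leukocyte RNA in the level of Fli1 was not tested.

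Of 6 further glomerular endothelial genes, 1 was called in IgG2a against young: Plat, the tissue plasminogen activator, fell by 0.90 ± 0.21 (adjusted p by edgeR = 0.0248). The list's most abundant gene, Lpl, was at −0.36 ± 0.21 and did not pass. Cyp26b1, which breaks down retinoic acid, was at 38.1, 16.1, 51.4, 80.3 and 68.0 CPM in young, at 7.56, 85.1, 59.3 and 47.1 CPM in IgG2a and at 19.8, 8.38, 9.30 and 11.7 CPM in aPD1ab libraries. It fell by 2.03 ± 0.43 on the log2 scale in aPD1ab against young (adjusted p = 0.0106). Against IgG2a its difference of −2.05 ± 0.62 did not pass with all libraries (adjusted p = 0.111) and passed without replicate 1 (−2.41 ± 0.32, adjusted p = 0.00650).

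Neither the 6 arterial nor the 3 tested of 4 venous and the 3 tested of 4 lymphatic genes had a member called in IgG2a against young or in aPD1ab against IgG2a with all libraries. The medians with age were −0.29, −0.17 and 0.57, and −0.52, −0.36 and 0.069 without IgG2a replicate 1. That library had 37.9 CPM of Prox1, a lymphatic transcription factor, against 13.4 to 15.0 CPM in the other 3. The lymphatic median of 0.57 is the value of Prox1 itself. Flt4, also in the lymphatic list, had 13.5 CPM in that library, within 9.21 to 16.6 CPM in the group. Lyve1 had at most 1.79 CPM in any library. Whether the Prox1 reads came from lymphatic endothelium was not tested. Without IgG2a replicate 1 the arterial genes Efnb2 and Gja5 and the venous genes Ephb4 and Nr2f2 were called lower with age. In aPD1ab against IgG2a, Bmx was then called lower and Nr2f2 higher.

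Of 6 genes of endothelial activation, 2 rose with age and 1 fell. Vcam1, a leukocyte adhesion molecule that tubular cells also make, was at 28.9 to 51.6 CPM in young and at 118, 237, 218 and 93.9 CPM in IgG2a libraries, a log2 fold change of 2.22 ± 0.29 (adjusted p by edgeR = 0.00422). Sele, or E-selectin, which activated endothelium displays, rose by 1.20 ± 0.33 (adjusted p = 0.0343), from 2.90 ± 0.92 CPM in young to 6.38 ± 2.61 CPM in IgG2a libraries. It was at 17.2, 12.1, 8.73 and 20.5 CPM in aPD1ab libraries, a log2 fold change of 2.35 ± 0.30 against young (adjusted p = 0.00307) and of 1.18 ± 0.36 against IgG2a, which did not pass (adjusted p = 0.112). Angpt2, the ligand of the Tek receptor made by activated endothelium, fell by 0.73 ± 0.21 with age (adjusted p = 0.0412).

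Among the marker lists of other cells, 6 of 8 podocyte genes fell in IgG2a against young (median −1.70), as did 7 of 8 proximal tubule genes (median −1.84) and 3 of 7 mesangial and smooth muscle genes (median −1.18). Of 10 leukocyte genes 5 rose (median 1.16), and of 5 red cell genes 0 were called (median 0.89). Without IgG2a replicate 1, 6 podocyte, 8 proximal tubule and 3 mesangial and smooth muscle genes were lower and 8 leukocyte genes higher with age. In aPD1ab against IgG2a none of these was called with all libraries, whereas without that library 8 of 8 proximal tubule genes (median 2.71) and 3 podocyte genes (median of the 8, 1.12) were higher and 8 of 10 leukocyte genes lower (median −1.18). Leaving out 1 library at a time in IgG2a against young, the counts ranged from 4 to 6, 0 to 8, 2 to 3 and 0 to 8 for the first 4 of these lists, and from 1 to 9 for the 20 other pan-endothelial genes. Those fits called 3.4% to 45.6% of all genes. In IgG2a against young libraries, falls of endothelial genes came together with falls in the other resident lists and with rises of leukocyte genes. IgG2a replicate 1 differed from its group in tubule and leukocyte sums. Its endothelial sum was 631 CPM, beside 601 to 621 in the other IgG2a libraries. The median proximal tubule sum was 6295 CPM in aPD1ab and 6253 in young libraries. For podocyte genes it was 510 and 1080 CPM, and for the 10 endothelial genes 621 and 869. What part these shifts had in the endothelial values was not tested.

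Across the 13 libraries the genes outside the endothelial lists whose centred log2 CPM ran closest to the members' mean profile were Dock6, Hdac7, Ccm2l, Bicd2 and Hmbox1. Their root mean square distances from it were 0.11, 0.13, 0.14, 0.14 and 0.14 on the log2 scale, against a median of 0.44 over 10218 candidate genes. The members themselves lay between 0.11 (Pecam1) and 0.47 (Vwf), with Ehd3 at 0.46 and Plvap at 0.38. Ehd3, Plvap and Vwf, the genes that differ between vascular beds, thus departed most from the mean of the list. The mean profile averaged 0.25 ± 0.13 in young (SD, n = 5), −0.10 ± 0.13 in IgG2a (n = 4) and −0.21 ± 0.38 in aPD1ab libraries (n = 4).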

How the data were processed

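The values are whole-number read counts per Ensembl gene that the authors deposited without normalization. Their processing notes name HISAT2, featureCounts and the builds mm10 and GRCm38. Versions and the strand setting are not given in the sources used here. The column headers carry other numbers than the sample labels, so columns were tied to groups only by the numbers in the study's plot of principal components, and 2 of 15 columns were not used. The labels describe the samples as separate mice.

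Each pair of groups was fitted alone in R 4.3.3 with edgeR 4.0.16: TMM scaling, filterByExpr, robust quasi-likelihood test and Benjamini-Hochberg adjustment over all genes, called at an adjusted p under 0.05. CPM is TMM-scaled. log2 ratios used a prior count of 2 and exact permutation tests (scipy 1.17.1). TPM used exon lengths of GENCODE M21 on GRCm38, without TMM. DESeq2 1.42.0 and limma 3.58.1 were alternatives. On simulated 2-fold changes, the fit recovered 67% of 200 genes for IgG2a against young, 15.5% for aPD1ab against IgG2a and 78.5% for aPD1ab against young. Totals cover counting error only.

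The members and all gene lists were chosen with earlier results of these data known. All 10 members are named, and of each other list its counts, its median, at most 4 genes by mean CPM and up to 2 called genes by smallest adjusted p. Robo4, Cldn5, Fli1, Gpihbp1, and the arterial and venous genes called without IgG2a replicate 1, were named after their values were seen. The genes of nearest profile are the 5 with the smallest distance among those over 5 CPM.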

Additional observations from a re-analysis of the deposited data

Results flagged for a closer look

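In 4 of 39 groups of values (10 genes and 3 ratios in 3 groups), 1 library lay far from the others by Dixon's criterion, which chance meets in about 1 of 20 groups. Pecam1 was at 97.9 CPM in young replicate 2, against 128 to 134 CPM in the other young libraries. Ehd3 was at 155 CPM in IgG2a replicate 1, against 93.0 to 94.4 CPM in the other 3 IgG2a libraries, and the log2 ratio of Ehd3 to Cdh5 was 1.30 in the same library, against 0.60 to 0.70. The log2 ratio of Ehd3 to Cdh5 was 0.22 in aPD1ab replicate 2, against 1.08 to 1.24 in the other aPD1ab libraries.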

How the results depend on the processing

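Against 4 members called in IgG2a against young, other settings called, with the share of all genes called, 0 (1 edgeR fit of all 3 groups, 14.0%), 2 (that fit without IgG2a replicate 1, 38.6%), 7 (scaling to library totals, 23.3%), 8 (that scaling without IgG2a replicate 1, 57.8%), 6 (DESeq2, 27.9%), 6 (DESeq2 without IgG2a replicate 1, 48.1%), 6 (voom, with Vwf higher, 46.7%), 5 (relative log expression size factors, 16.9%), 3 (no filter on low counts, 7.27%) and 0 (a change over 2-fold required as well, 3.89% higher and 4.59% lower). Plvap reversed to −0.021 in the 3-group fit, and to −0.44 and −0.26 under library totals with and without that library, and Eng to 0.0068 with DESeq2 without it and 0.058 with voom. Under library totals Eng was at −0.43 with IgG2a replicate 1 and at −0.51 without it, where it was called lower. In aPD1ab against IgG2a, 1 member (Vwf) was called by the 3-group fit (38.9% of all genes) and by DESeq2 (38.0%), both without IgG2a replicate 1, and by voom (39.8%). Library totals turned Pecam1 to 0.12, Cdh5 to 0.23, Plvap to 0.082, Nos3 to 0.26 and Egfl7 to 0.14 there, beside a median of 0.24 over all genes. In aPD1ab against young, 1 was called under library totals (15.6% of all genes) and 1 without the filter on low counts (11.2%), 3 by DESeq2 (28.9%), 0 with a 2-fold change required (2.1% higher and 2.69% lower), and Eng turned to −0.0089 under library totals. The log2 ratio of Plvap in aPD1ab against IgG2a turned to 0.057 over Pecam1 and 0.023 over Egfl7. Leaving out 1 library at a time, called members ranged from 0 to 6, 0 to 1 and 0 to 4 in the 3 comparisons, Plvap from −0.17 to 0.27 and Eng from −0.079 to 0.042 with age, and, in aPD1ab against IgG2a, Cdh5 from −0.31 to 0.11, Ehd3 from −0.24 to 0.31, Eng from −0.082 to 0.28, Nos3 from −0.16 to 0.071, Egfl7 from −0.26 to 0.0083, Esam from −0.035 to 0.23 and the ratios to Cdh5 from −0.017 to 0.32 for Ehd3 and from −0.36 to 0.30 for Plvap. In aPD1ab against young, Eng ranged from −0.15 to 0.23 and the ratio of Vwf to Cdh5 from −0.15 to 0.42. The cause of these changes was not tested. Library totals and the settings without IgG2a replicate 1 that use DESeq2 or 3 groups were added after seeing the data. No paired analysis was run, since the labels describe separate mice and no pairing between groups. The small number of libraries, the tie of columns to groups through a plot, the mixed makeup of the fraction and the joint change of age and injection all limit these results. As to depth, the rarest member had 98 reads in its lowest library.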
